A study of Homo sapiens with 4 samples.

Results

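ETV6 and RUNX1 are the genes joined by the t(12;21) translocation of B-cell precursor acute lymphoblastic leukemia (BCP-ALL), and the H3K27ac peaks over their hg19 gene bodies were described in a cell line with the fusion and in a cell line without it. Each gene body was widened by 10 kb on both sides, which gave chr21:36150000-36432000 for RUNX1 and chr12:11792000-12059000 for ETV6. The stretch from the 5′ end of that RUNX1 body to the distal start of its longest transcripts, chr21:36422000-37377000, was described apart as the upstream window. A peak belonged to a window when it overlapped it by at least 1 bp. Of the 44626 peaks of REH 62 met this rule, and of the 74504 peaks of 697 101 did, where 1 REH peak and 2 697 peaks on the border of both RUNX1 windows counted in each.

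H3K27ac was profiled by ChIP-seq in untreated cultures of REH and 697, human B-ALL lines grown in RPMI with serum, with 1 immunoprecipitated and 1 input library per line. REH carries the ETV6/RUNX1 fusion and has lost its other ETV6 allele through a deletion, whereas 697 is negative for this fusion. After removal of duplicates 65241657 ChIP tags remained in REH and 68911420 in 697, so depth was similar, while the 697 peaks covered 1.49 times as many bases over the whole genome. There were no replicates, so no difference between the lines has a replicate check and no p-value is given. Other differences between the lines cannot be told apart from the fusion, and the lists hold no copy number, so fewer copies of a region and less acetylation per copy cannot be told apart either.

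ETV6 encodes a transcription factor of the ETS family that acts mainly as a repressor and is needed for blood stem cells in the bone marrow. RUNX1 encodes the DNA-binding subunit of core-binding factor, which binds DNA with its partner CBFB and controls the formation of blood stem cells and the development of B cells. In the translocation the N-terminal part of ETV6, with its pointed domain, is joined to nearly all of RUNX1, with its Runt domain, and the fusion is transcribed from the ETV6 promoter. RUNX1 itself has a distal and a proximal promoter, and H3K27ac, an acetyl mark on the tail of histone H3, lies over active promoters and enhancers, often in long domains over genes that define a cell type.

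In GENCODE v44, on GRCh38, the reference transcript of RUNX1 (ENSG00000159216.19, transcript RUNX1-218) lies on the minus strand of chromosome 21 from 34787801 to 35049302 and has 9 exons over 261502 bp. A shorter transcript, RUNX1-202, starts 160612 bp further along the gene at the proximal promoter, and the longest ones start up to 955365 bp before the start of the reference transcript. The reference transcript of ETV6 (ENSG00000139083.11, ETV6-202) spans 245704 bp of chromosome 12 with 8 exons, plus strand, between 11649674 and 11895377. The peaks are on hg19 and the annotation used here is on GRCh38, so the builds were not combined and no peak was assigned to an exon, an intron or a start site. For the same reason no other gene of the pathway, no gene with a similar pattern and no marker gene of the B lineage was measured. Positions of peaks are given as the distance from the 5′ end of the hg19 gene body in the direction of transcription, at 36422000 for RUNX1 and 11802000 for ETV6. Both ends are set in whole kb, so finer distances to the start of a gene are not resolved.

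The promoters are shown because the same factors that the genes encode could be looked for in them by sequence. Both members matched the RefSeq promoters of GRCh38.p14, and for each the 250 bases before the annotated start are printed 5′ to 3′. The ETV6 stretch is chr12:11649424-11649673 on the plus strand. The RUNX1 stretch is chr21:34888700-34888949 on the minus strand and belongs to the proximal promoter of the shorter transcripts. Capitals mark GGAA and its reverse complement TTCC, the core of the ETS motif:
ETV6 promoter: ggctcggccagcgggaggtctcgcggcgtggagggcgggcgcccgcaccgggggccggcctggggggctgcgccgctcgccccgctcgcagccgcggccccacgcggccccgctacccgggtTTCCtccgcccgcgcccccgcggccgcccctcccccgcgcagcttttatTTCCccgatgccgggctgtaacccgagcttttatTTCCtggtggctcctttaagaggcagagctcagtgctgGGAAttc
RUNX1 proximal promoter: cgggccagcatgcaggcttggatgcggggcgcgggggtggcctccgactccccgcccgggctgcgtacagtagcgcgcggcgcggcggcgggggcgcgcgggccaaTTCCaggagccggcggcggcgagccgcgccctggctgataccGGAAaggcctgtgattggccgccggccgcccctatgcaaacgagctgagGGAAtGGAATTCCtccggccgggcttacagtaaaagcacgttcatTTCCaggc
The ETS core occurred 4 times in the ETV6 stretch and 6 times in the RUNX1 stretch, counted on both strands. It is a short motif that 92.7% of the 35116 promoters of this length held, with a median of 3. TGTGGT, the core of the RUNX motif, or its reverse complement ACCACA occurred 0 times in both, and 11% of all promoters held it. Both stretches were rich in G and C, with 74.4% for ETV6 and 71.2% for RUNX1 against a median of 58% over all promoters. Each held 32 CG dinucleotides, where the median promoter held 11. A match is a description of letters, not of binding.

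Peaks covered a large share of both gene bodies in both cell lines. In the ETV6 window the 22 peaks of REH covered 71484 bp (26.8% of the window) and the 38 peaks of 697 covered 84152 bp (31.5%). In the RUNX1 gene body window 20 REH peaks covered 52082 bp (18.5%) and 29 697 peaks covered 56563 bp (20.1%). In the RUNX1 upstream window coverage was thinner, at 24710 bp (2.59%) under 21 REH peaks and 45419 bp (4.76%) under 36 697 peaks. In each window 697 had more peaks and more bases under peaks than REH, as it had over the whole genome.

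To place these values, the chromosomes were cut into tiles as wide as each window, and tiles with a peak in at least 1 cell line were kept. Among 8458 tiles of the ETV6 width the median coverage was 1.59% in REH and 2.13% in 697. Only 20 tiles in REH (0.236%) and 48 in 697 (0.568%) were covered as much as the ETV6 window. For RUNX1, 90 of 8080 tiles in REH (1.11%) and 238 in 697 (2.95%) reached the coverage of the gene body window. Both gene bodies were thus among the most densely covered stretches of their size in both lines. The upstream window was not: 977 of 2856 tiles in REH (34.2%) and 814 in 697 (28.5%) were covered at least as much.

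**Figure D1:**
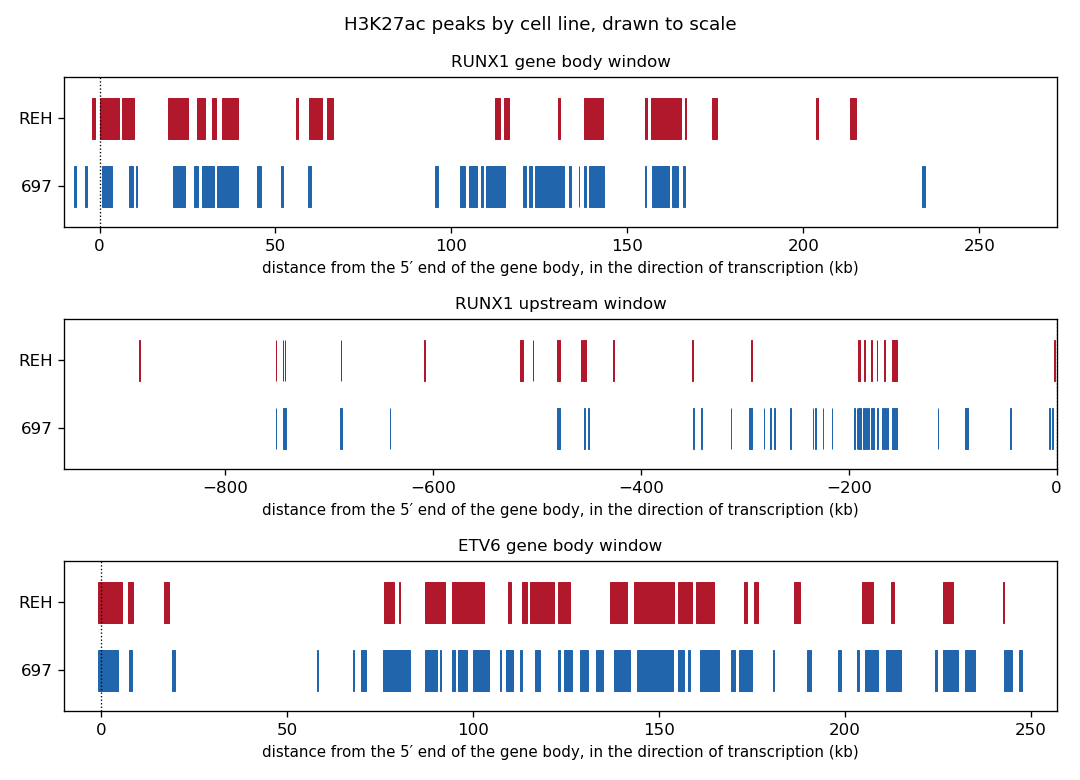
H3K27ac peaks of REH (red, upper row) and 697 (blue, lower row) in the 3 windows, drawn to scale against the distance from the 5′ end of the gene body in kb (dotted line: 5′ end at 0). In ETV6 both lines have a dense block of peaks from about 60 to 180 kb, and in RUNX1 a block near the 5′ end and another between 100 and 180 kb.

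The lines were compared by the bases under their peaks, and a window counted as different when these differed at least 2-fold or when only 1 line had a peak. By this rule 0 of the 3 windows differed, a call that depends on the peak cutoff: with peaks of a −log10(p) of at least 10 alone, all 3 passed 2-fold with REH higher, at 4.41 in the RUNX1 gene body, 3.10 upstream and 3.29 in ETV6. The p-values behind that cutoff followed the neighbouring entries of the list more than the length of the peak, as the correlations given further on show. Those correlations do not show whether the cutoff selects the peaks with the strongest signal. With all peaks, the ratio of REH to 697 bases was 0.921 in the RUNX1 gene body window, 0.849 in the ETV6 window and 0.544 in the upstream window. Over tiles of the same width with peaks in both lines the median ratio was 0.759, 0.757 and 0.761. The ratio was thus a little above that of the median tile in the gene bodies and below it upstream, where it rose from 0.544 to 0.964 with peaks at an FDR of at most 5%. A difference of 2-fold was common among all tiles with a peak in at least 1 line. It was passed by 53.8% of 8080 tiles of the RUNX1 gene body width and 54.8% of 8458 of the ETV6 width. Of 2856 tiles of the upstream width 44.7% passed it. Tiles with peaks in 1 line only count as different here, and peaks in both lines were held by 6333, 6580 and 2557 tiles. Most tiles were sparser than the gene bodies, with a median of 4 REH and 5 697 peaks at both gene body widths. With 1 library per line it was not tested whether any of these ratios exceeds the spread between cultures.

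**Figure D2:**
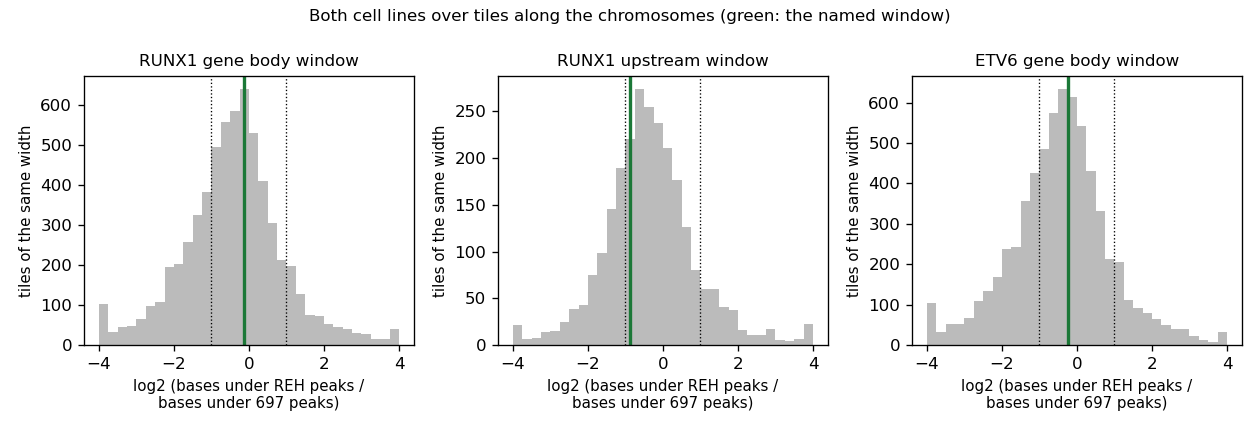
Histograms of the log2 ratio of bases under REH peaks to bases under 697 peaks, over tiles of the same width as each window that have peaks in both lines (vertical axis: number of tiles; ratios beyond the ends of the axis are drawn in the outermost bars). The green line marks the window and the dotted lines mark 2-fold, and all 3 windows lie between the dotted lines.

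ETV6 was the more densely covered gene, and both lines marked its 5′ end. In REH a peak of 6295 bp (chr12:11801193-11807487) spanned the 5′ end of the gene body. In 697 a peak of 5373 bp (chr12:11801115-11806487) spanned it too. Over the first 20 kb REH had 8286 bp and 697 had 6003 bp under 3 peaks each. The next 40 kb, from 20 to 60 kb, were almost bare, with 0 bp in REH and 366 bp under 1 peak in 697. This stretch holds most of the longest gap without a peak in each line, 57894 bp in REH (chr12:11820232-11878125) and 38254 bp in 697 (chr12:11821747-11860000).

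The bulk of the ETV6 acetylation lay from 60 to 180 kb. REH had 54185 bp there under 14 peaks, which is 75.8% of its bases in the window, and 697 had 56442 bp under 23 peaks, which is 67.1%. With all peaks, the lines thus covered this stretch to nearly the same extent, 45.2% in REH and 47.0% in 697. REH had fewer and longer peaks. This likeness depends on the peak cutoff. With a −log10(p) of at least 10 REH kept peaks of 2654, 5330, 8733, 4679, 758 and 898 bp there. At that cutoff 697 kept peaks of 3016, 257 and 5228 bp. The longest REH peak in ETV6 measured 10617 bp (chr12:11945368-11955984, 143.4 to 154.0 kb), and 225 peaks of the REH list (0.504%) were at least as long. The longest 697 peak, 9595 bp (chr12:11946144-11955738, 144.1 to 153.7 kb), lay at the same place, and 375 peaks of its list (0.503%) were at least as long. This place was therefore the longest peak of the gene in both lines. In the bin from 140 to 160 kb, 79.2% of the bases were under REH peaks and 70.3% under 697 peaks, the fullest bin of the window in each line.

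The next longest peaks of ETV6 did not coincide. In REH they measured 8733 bp (chr12:11896293-11905025, 94.3 to 103.0 kb) and 6462 bp (chr12:11917216-11923677, 115.2 to 121.7 kb). In 697 the second longest, 7377 bp, lay at chr12:11877670-11885046 (75.7 to 83.0 kb), and the third was the peak over the 5′ end. Together the 3 longest peaks held 36.1% of the REH bases in the window and 26.6% of the 697 bases.

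With all peaks, the clearest difference within ETV6 was at its 3′ side. From 180 kb to the end of the window, a stretch of 77 kb, REH had 8206 bp under 5 peaks and 697 had 20456 bp under 11 peaks, 2.49 times as much. Over the last 37 kb, from 220 kb on, the values were 2919 bp under 2 peaks and 10072 bp under 5 peaks, 3.45 times as much in 697. From the start of the window to 180 kb the lines differed little in total, at 63278 bp (REH) and 63696 bp (697), or 1.01 times as much in 697. Single bins before 180 kb differed in both directions. From 60 to 80 kb REH had 2654 bp and 697 had 5965 bp, and from 80 to 100 kb 11233 and 9454 bp. The longest 697 peak of ETV6 that no REH peak overlapped lay in the 3′ stretch, 2468 bp at chr12:12034441-12036908 (232.4 to 234.9 kb). The longest such REH peak, 1496 bp at chr12:11818736-11820231, lay near the 5′ end (16.7 to 18.2 kb). These stretches were chosen after the bins had been seen, so the ratios are descriptions. They also depend on the peak cutoff. Past 180 kb the 697 peaks of 4227, 3819 and 2468 bp did not reach an FDR of at most 5%, whereas the 5 REH peaks did. With a −log10(p) of at least 10 the REH peaks there stayed and no 697 peak did. Whether the deletion or the junction in REH has a part in the lower 3′ coverage was not tested.

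In bins of 20 kb, 13 of the 14 bins of the ETV6 window held a peak, 12 of them in both lines, 1 in 697 only and 0 in REH only. REH had at least 2-fold more bases in 0 bins and 697 in 5. Over all such bins of the genome with a peak, 69.3% differed at least 2-fold in one direction or the other.

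**Figure D3:**
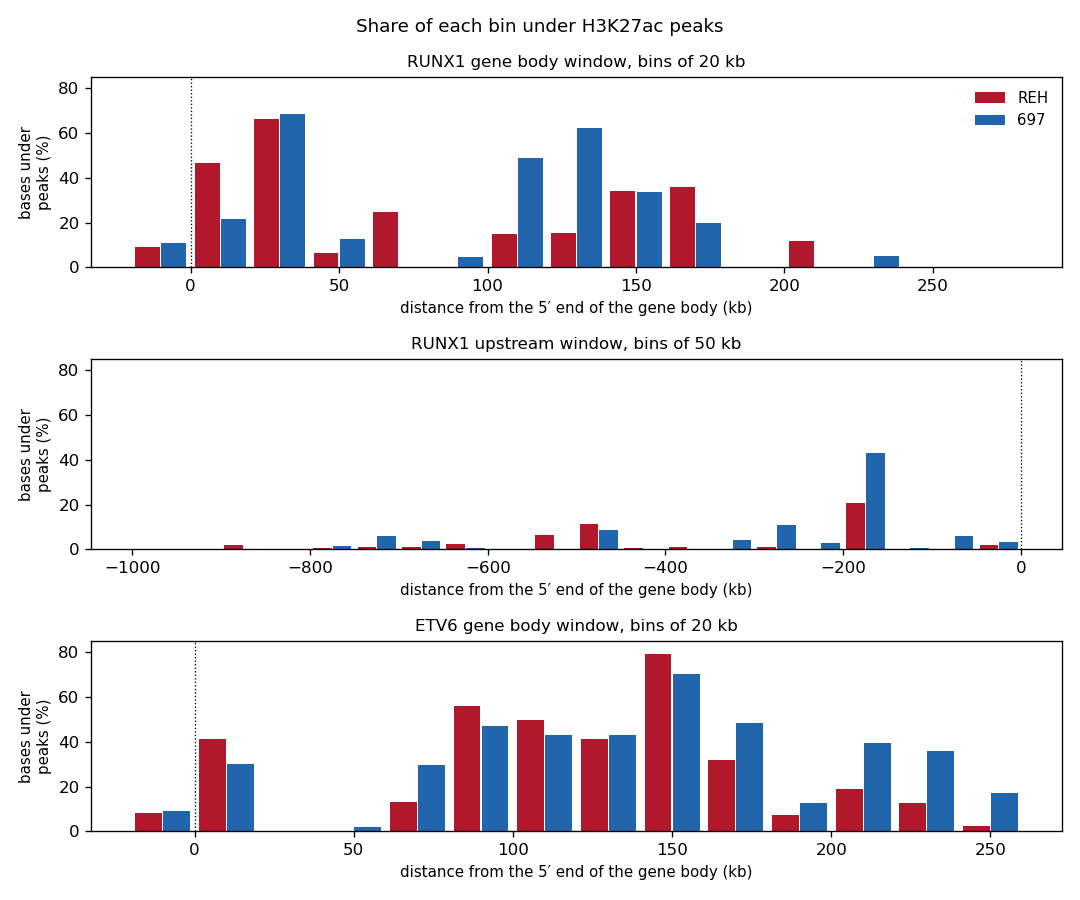
Percent of the bases of each bin under H3K27ac peaks in REH (red) and 697 (blue), against the distance from the 5′ end of the gene body in kb, in bins of 20 kb for the gene bodies and 50 kb for the upstream window (dotted line: 5′ end; bins at the edges count only bases inside the window). In ETV6 the blue bars exceed the red bars in every bin from 160 kb on, and in RUNX1 the blue bars exceed the red bars most clearly from 100 to 140 kb. The bars count all peaks of the lists, and these differences depend on the peak cutoff.

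The RUNX1 gene body had its acetylation in several blocks. The first lay at the 5′ end of the gene body, the side of the distal promoter of the reference transcript. The REH peak nearest to that end measured 5425 bp (chr21:36416520-36421944), and the nearest 697 peak measured 2790 bp (chr21:36418403-36421192). Both lay closer to that end than the whole kb in which it is set, so whether either reaches the RUNX1 start is not resolved. Over the first 20 kb REH had 9370 bp and 697 had 4291 bp, 2.18 times as much in REH, under 3 peaks each. In the next bin, from 20 to 40 kb, the lines were alike, with 66.4% of the bases under REH peaks and 68.6% under 697 peaks, and this was the fullest bin of the RUNX1 window in both. This bin holds most of the second longest REH peak (5798 bp, chr21:36396821-36402618, 19.4 to 25.2 kb) and all of the second longest 697 peak (6032 bp, chr21:36382645-36388676, 33.3 to 39.4 kb).

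Between 60 and 100 kb RUNX1 was nearly bare in 697. From 60 to 80 kb REH had 4959 bp under 2 peaks, and 697 had 57 bp at the edge of 1 peak. From 80 to 100 kb REH had 0 bp and 697 had 936 bp. The longest gap of REH, 45844 bp (chr21:36309671-36355514), lies largely here.

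With all peaks, the largest difference in bases among the stretches described in RUNX1 was from 100 to 140 kb. The ratio was larger from 60 to 80 kb. From 100 to 140 kb REH had 5963 bp under 4 peaks (14.9% of the stretch). There 697 had 22187 bp under 11 peaks (55.5%), 3.72 times as much. This stretch held the longest 697 peak of the gene, 8356 bp at chr21:36289911-36298266 (123.7 to 132.1 kb), a length that 544 peaks of the 697 list (0.730%) reached. It also held the third longest, 5381 bp at chr21:36306686-36312066 (109.9 to 115.3 kb), and the longest 697 peak that no REH peak overlapped, 2130 bp at chr21:36314831-36316960 (105.0 to 107.2 kb). In the 697 line this block alone made up 39.2% of the bases of the window, against 11.4% in REH. The excess of 697 depends on the peak cutoff. Its peaks of 8356, 5381 and 2130 bp reached an FDR of at most 5% but not a −log10(p) of at least 10. At the latter cutoff 697 kept peaks of 459, 185 and 687 bp here. REH kept peaks of 1557 and 1378 bp, and 1 of 5242 bp that crosses 140 kb.

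From 140 to 180 kb the order was the other way and the lines were closer, with 14007 bp in REH and 10751 bp in 697 under 5 peaks each. Here lay the longest REH peak of RUNX1, 8628 bp at chr21:36256681-36265308 (156.7 to 165.3 kb), and 393 peaks of the REH list (0.881%) were at least as long. The distance of the proximal start from the start of the reference transcript on GRCh38, given above, falls within the range of distances of this peak on hg19 and within that of a 697 peak of 4626 bp (chr21:36260282-36264907, 157.1 to 161.7 kb), but the builds were not matched base by base. Beyond 180 kb the last 92 kb held 2345 bp under 2 peaks in REH and 1010 bp under 1 peak in 697. The longest gap of 697, 67265 bp (chr21:36188383-36255647), lies mostly in this 3′ part. The longest REH peak of RUNX1 without a 697 partner, 1849 bp at chr21:36207003-36208851 (213.1 to 215.0 kb), lies inside that gap.

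In bins of 20 kb, 12 of the 15 bins of the RUNX1 gene body window held a peak, 9 of them in both lines, 1 in REH only and 2 in 697 only. REH had at least 2-fold more bases in 3 of these bins and 697 in 4, so 7 of the 12 differed, no more than the 69.3% of all such bins of the genome. In the window as a whole 24247 bp were under REH peaks only, 28728 bp under 697 peaks only and 27835 bp under peaks of both.

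The upstream window of RUNX1, which reaches to the distal start of its longest transcripts, was sparse, and its ratio with all peaks was the farthest from 1 of the 3 windows, which did not hold with peaks at an FDR of at most 5%. Its densest stretch in both lines lay from -200 to -150 kb, distances before the 5′ end being negative, where REH had 10420 bp under 6 peaks and 697 had 21591 bp under 12 peaks, 2.07 times as much. That stretch held 42.2% of the REH bases and 47.5% of the 697 bases of the window. Its main peak was the longest of the window in both lines and lay at the same place, 4590 bp in REH (chr21:36576077-36580666) and 5338 bp in 697 (chr21:36575388-36580725). The second longest 697 peak, 3167 bp at chr21:36609918-36613084, lay in the same stretch. Neither this peak nor the main 697 peak reached an FDR of at most 5%, whereas the 6 REH peaks of the stretch did.

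On both sides of that stretch 697 had most of the bases. From -350 to -200 kb it had 8907 bp under 12 peaks, against 513 bp under 1 peak in REH, a ratio of 17.4. This ratio rests on the length of a single REH peak, and most of the 697 peaks there did not reach an FDR of at most 5%. In the 150 kb next to the gene body 697 had 4726 bp under 5 peaks and REH had 896 bp under 1 peak. The longest unshared 697 peak of the window, 2958 bp at chr21:36507458-36510415, lay there (-88.4 to -85.5 kb). These bases fall within the longest gap of REH in the window, 151953 bp (chr21:36424124-36576076).

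Farther out the direction changed. From -550 to -450 kb REH had 8839 bp under 5 peaks and 697 had 4220 bp under 3 peaks, 2.09 times as much in REH. The 697 peaks of 2362 and 1479 bp in this stretch did not reach an FDR of at most 5%. The 697 peak of 379 bp and the 5 REH peaks of the stretch did. The next longest REH peaks of the window after the main one lay in this stretch, 2902 bp at chr21:36935643-36938544, which no 697 peak overlapped, and 2498 bp at chr21:36900075-36902572. The longest gap of 697 in the window, 160832 bp (chr21:36902688-37063519), begins beside the latter. From -800 to -600 kb the values were 2349 bp in REH and 5975 bp in 697, and the 697 bases included the third longest 697 peak, 2964 bp at chr21:37163669-37166632. In the outermost 155 kb REH had 1 peak of 851 bp (chr21:37304481-37305331), 71669 bp from the outer end of the window, and 697 had none. The outermost 697 peak, 769 bp at chr21:37172927-37173695, ended 203305 bp before it. Neither line thus had a called peak at the outer end, where the longest transcripts begin.

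In bins of 50 kb, 16 of the 20 bins of the upstream window held a peak, 8 of them in both lines, 4 in REH only and 4 in 697 only. REH had at least 2-fold more bases in 5 bins and 697 in 9, so 14 of the 16 differed, against 64.4% of all such bins of the genome with a peak.

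Peaks were also compared one by one, and a peak was counted as shared when a peak of the other line overlapped it by at least 1 bp. In ETV6, 19 of 22 REH peaks (86.4%, 95% Wilson interval 66.7 to 95.3) and 23 of 38 697 peaks (60.5%, 44.7 to 74.4) were shared. In the RUNX1 gene body window the values were 14 of 20 in REH (70.0%, 48.1 to 85.5) and 15 of 29 in 697 (51.7%, 34.4 to 68.6). In the upstream window they were 13 of 21 in REH (61.9%, 40.9 to 79.2) and 12 of 36 in 697 (33.3%, 20.2 to 49.7). The intervals cover counting error only, and peaks of 1 library are not replicates.

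The unshared peaks numbered 3, 6 and 8 in REH for ETV6, the RUNX1 gene body and the upstream window, against 35.9% unshared among all REH peaks. In 697 they numbered 15, 14 and 24, against 61.1% of all 697 peaks. By this rule ETV6 had the lowest unshared share of the 3 windows in both lines, and the upstream window the highest. In 697 that order was the same under both stricter rules of sharing, but in REH it was not. When 50% of the shorter peak had to be overlapped, 17 of 22 REH peaks were shared in ETV6, 10 of 20 in the RUNX1 gene body and 13 of 21 upstream, and with the midpoint in a 697 peak 13, 8 and 13 were shared. For bases, 67.9% of the REH bases in ETV6 were also under 697 peaks, against 53.4% in the RUNX1 gene body, 63.7% in the upstream window and 58.5% over the whole genome. Of the 697 bases, 57.6% in ETV6, 49.2% in the RUNX1 gene body and 34.7% in the upstream window were also under REH peaks, against 39.1% over the whole genome. ETV6 thus had the highest shared percent of the 3 windows in both lines. A longer peak meets a partner more easily, and the part of peak length in these shares was not tested.

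Peak lengths differed between the lines in the gene bodies. In ETV6 the REH peaks ran from 196 to 10617 bp with a median of 2603.5 bp, and the 697 peaks from 257 to 9595 bp with a median of 1479 bp. The RUNX1 gene body had lengths of 438 to 8628 bp in REH (median 1670.5 bp), whereas 697 had 185 to 8356 bp (median 1010 bp). Upstream the REH lengths were 210 to 4590 bp (median 795 bp) and the 697 lengths 186 to 5338 bp (median 851.5 bp). Over the whole lists the median was 1060 bp in REH and 871 bp in 697, so the gene bodies held longer peaks than the list in both lines and the upstream window did not.

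Long peaks were concentrated in the gene bodies. Peaks of at least 5 kb, which were 3.28% of the REH list and 2.99% of the 697 list, numbered 5 of 22 in REH and 4 of 38 in 697 in ETV6. In the RUNX1 gene body there were 4 of 20 in REH and 3 of 29 in 697, and in the upstream window 0 of 21 and 1 of 36. Peaks of at least 2 kb numbered 12 in REH and 15 in 697 in ETV6, 8 and 9 in the RUNX1 gene body, and 4 and 8 upstream, against 22.9% and 19.2% of the lists.

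**Figure D4:**
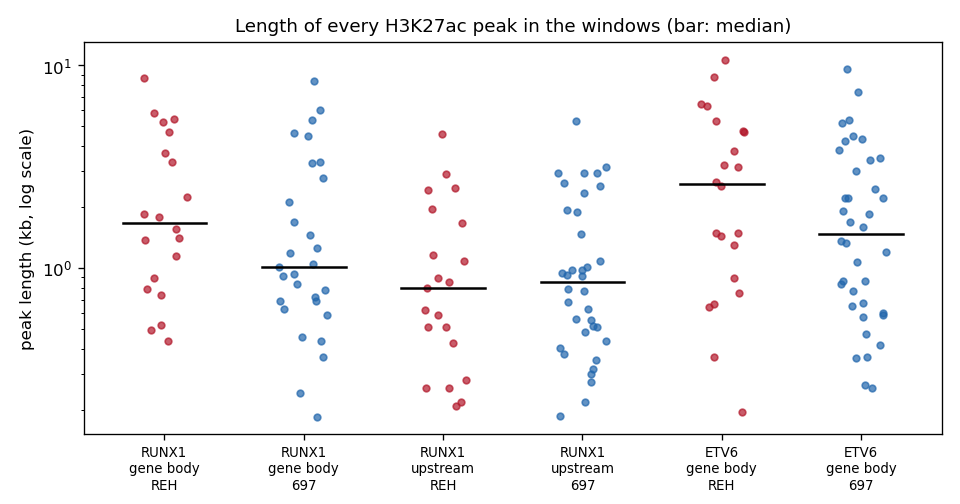
Length of each peak in kb, on a log scale, for the 3 windows in REH (red) and 697 (blue); each point is 1 peak, the bar is the median, and points are spread sideways only to keep them apart. In both gene bodies the REH median lies above the 697 median, and upstream the medians are close.

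The lists also give a pileup, a fold enrichment and a p-value for each peak. Fold enrichments over the local background ran from 1.18 to 3.75 in REH and 1.08 to 2.96 in 697 for ETV6. For the RUNX1 gene body they ran from 1.08 to 3.04 in REH and 1.08 to 3.73 in 697. Upstream the REH values were 1.01 to 2.86 and the 697 values 1.06 to 2.84. These values were not compared peak by peak between the lines, and p-values and FDRs were used only as alternative cutoffs, because the pileup and the p-value followed the neighbouring entries of the list more than the length of the peak. The Spearman correlation of the pileup of a peak with that of the next peak was 0.618 in REH over 44602 pairs and 0.714 in 697 over 74480 pairs, while that of pileup with the peak's own length was 0.048 and 0.030. For the −log10(p) the correlation with the next peak was 0.574 in REH and 0.626 in 697, and that with the peak's own length was 0.092 and 0.065. The correlations are across peaks of 1 library, which are not independent, and they do not show whether the values rank the peaks correctly by signal.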

How the data were processed

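REH and 697 each had 1 H3K27ac and 1 input library. The authors mapped reads to hg19 (Bowtie2 per the submitters' processing notes) and called peaks against the input of the same line; the methods name an older MACS, while the deposited headers show a broad run of MACS 2.1.0.20150731 with 1 tag per position and q-value cutoffs of 0.05 and 0.1. The deposited lists give positions, a pileup signal, a fold enrichment (ratio) and −log10 p-values and q-values, with no tag counts per peak.

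Peak positions and lengths were used. Covered bases were counted inside each window, and bins with peaks in only 1 line counted as different. Percents carry 95% Wilson intervals. Peaks described one by one were the 3 longest, the nearest to the 5′ end (upstream: to the outer end) and the longest unshared peak of each line. The stretches were chosen after the bins were seen, and the genes and rules with earlier results of these data known. Alternatives were a −log10(p) of at least 10, an FDR of at most 5%, merging within 1000 bp, only peaks reaching 1000 bp, lists cut to the same number by length, flanks of 0 or 50 kb, and stricter sharing. Scripts were tested on simulated data, and used scipy 1.17.1, pandas 2.3.3, numpy 2.4.6 and matplotlib 3.10.9 in Python 3.11.15. Reads and input libraries were not analysed here, and no hg19 genome or annotation was used. The sequences of the study's fusion assay are not reported here.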

Additional observations from a re-analysis of the deposited data

How the results depend on the processing

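With 1 library per line no replicate could be left out, and no paired analysis was possible because the comparison rests on 1 library per line with no test. Of 63 values recomputed under an alternative, 28 moved: counts by over 1.5 times, and ratios beyond a 95% Wilson interval that treats each covered base as a count. Bases under 1 peak are not independent, so that interval is narrow and a change from 0.849 to 0.829 passes it. Windows without flanks moved none. The p-values of the lists followed neighbouring entries more than peak length. Whether cutoffs on them or on the FDR select the peaks with the strongest signal was not tested. These correlations cannot decide it, since neither of them measures how the p-values rank signal. A −log10(p) of at least 10 turned the REH to 697 ratio of covered bases to 4.41 (RUNX1 gene body), 3.10 (upstream) and 3.29 (ETV6), past 2-fold with REH higher, on 7, 5 and 11 REH peaks and 4, 2 and 5 697 peaks. An FDR of at most 5% gave ratios of 0.899, 0.964 and 0.977 and 20 upstream 697 peaks. Merging peaks within 1000 bp gave 0.862, 0.524 and 0.822. Peaks of at least 1000 bp gave 1.00, 0.566 and 0.899, with 15 697 peaks in the RUNX1 gene body, 8 REH and 13 697 peaks upstream, and 23 697 peaks in ETV6. Equal peak numbers by length gave 0.996, 0.640 and 0.906, with 20 upstream 697 peaks. A flank of 50 kb gave 0.829 for ETV6. Counting a peak as shared by its midpoint left 8 shared REH peaks in the RUNX1 gene body and 7 shared 697 peaks upstream. Apart from the −log10(p) setting, no ratio passed 2-fold.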

Other observations

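Just past the 3′ end of the ETV6 window the lines differed more than inside it. In the next 200 kb (chr12:12059001-12259000) REH had 1 peak of 947 bp, and 697 had 11 peaks over 14345 bp. In REH the last peak of the window ended at 12044880, the next lay 117992 bp on, and the one after that a further 237013 bp on. In 697 the last peak of the window ended at 12049645, the next lay 47716 bp on and the one after that 7876 bp on. In the second step of 200 kb the order was the other way, where 2 REH peaks covered 5237 bp and 3 697 peaks covered 2527 bp, and in the steps after it the values were 6654 and 8681 bp in REH and 7446 and 10801 bp in 697. In the 200 kb before the 5′ side of the ETV6 window REH had 3917 bp under 2 peaks and 697 had 3331 bp under 5.

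Past the 3′ end of the RUNX1 window the first 200 kb held more bases in REH, 10607 bp under 5 peaks against 4482 bp under 6 peaks in 697. In the following steps the values were 4014, 1481 and 8360 bp in REH and 6199, 2891 and 5291 bp in 697. These stretches were looked at after the windows had been described, they were not compared by any test, and which genes lie in them was not analysed here.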
